A study of Mus musculus with 6 samples.

Results

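The genes described here are the 4 EGR zinc finger transcription factors (Egr1, Egr2, Egr3 and Egr4), their corepressors Nab1 and Nab2, the 3 NR4A orphan nuclear receptors (Nr4a1, Nr4a2 and Nr4a3) and Srf, the serum response factor. They were taken by symbol, 10 of the 21898 genes in the count table, and were picked because they stood lower in 2 of the 3 libraries of ovaries cultured with NAPQI. The comparison of NAPQI with control is therefore given for them as a description, and the counts of calls among them, which are printed beside those over all genes, support nothing. RNA was sequenced from fetal ovaries of wild-type mice, taken at 14.5 days post coitum and cultured for 3 days in serum-free medium. Ovaries of 3 libraries received 15 µM NAPQI (N-acetyl-p-benzoquinone imine, the reactive metabolite of acetaminophen), and those of 3 control libraries received an equal volume of the solvent, ethyl acetate. NAPQI was added to the isolated organ, so neither the mother nor her liver, where the metabolite is mainly formed, was part of the system. The labels do not say whether the 3 libraries of a group are separate litters or cultures, and their spread may be technical.

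EGR and NR4A genes are immediate early genes: a growth factor, hormone or stress signal switches them on within minutes from proteins the cell already holds, and their short-lived transcripts fall again soon after. Srf binds the CArG box in many such genes, together with ternary complex factors that ERK kinases phosphorylate or with MRTF cofactors that sense actin, while CREB binds the cAMP response element (CRE). EGR proteins bind GC-rich motifs and induce Nab2, which binds EGR proteins and represses them. NR4A receptors act without a known natural ligand, as monomers on the NBRE motif or as dimers, and Nr4a1 and Nr4a2 also pair with retinoid X receptors. In the adult ovary, Egr1 and Nr4a1 are known as genes that luteinizing hormone induces in follicles before ovulation.

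Depth was 13879347 to 17258609 counts per library, and 14736 genes had enough counts to be tested. Markers of germ cells and of pregranulosa cells, the supporting cells of the fetal ovary, were present in every library, with Ddx4 at 150 to 195 and Foxl2 at 299 to 404 counts per 1e+06 counted reads, with library sizes scaled by TMM (CPM). On the first principal component, control replicates 1, 2 and 3 stood at -14.97, 3.92 and -35.64. NAPQI replicates 1, 2 and 3 stood at 11.6, 8.77 and 26.33 there, so the groups did not overlap. Control replicate 3 was the most distant library, and its 7 red blood cell markers summed to 203 CPM against at most 69.1 CPM elsewhere. Over all tested genes, 12 were called (edgeR adjusted p under 0.05), 11 higher and 1 lower with NAPQI. Leaving out control replicate 3 left 1 call, as did leaving out NAPQI replicate 1 or 3, and leaving out NAPQI replicate 2 or control replicate 2 gave 25 or 58 calls.

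Promoter windows of 300 bases, from 250 before to 50 after an annotated gene start, were matched in RefSeq (GRCm38.p6) for 8 of the 10 genes; Egr1 and Egr3 were not matched, and their promoters were not searched. The 4 below are shown because they hold the motifs by which signals are known to reach this family, and because Egr2, Nr4a1 and Srf stood lower with NAPQI while Nr4a3 did so in only 2 libraries. Capitals mark matches to the CArG box, to the CRE core TGACG and its reverse complement CGTCA, to the EGR motifs GCGGGGGCG and GCGTGGGCG and to the ETS core CCGGAAG, and each line reads 5′ to 3′ on the strand of the gene. The full CRE TGACGTCA, which contains the core, and the NBRE AAAGGTCA were searched too.
Egr2, chr10:67537619-67537918, plus strand: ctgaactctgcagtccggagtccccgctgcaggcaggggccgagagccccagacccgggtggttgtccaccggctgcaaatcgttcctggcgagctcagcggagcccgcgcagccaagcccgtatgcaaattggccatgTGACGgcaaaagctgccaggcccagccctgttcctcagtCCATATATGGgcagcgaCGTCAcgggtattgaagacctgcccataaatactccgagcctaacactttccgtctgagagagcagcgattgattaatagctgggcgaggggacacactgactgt
Srf, chr17:46556113-46556412, minus strand: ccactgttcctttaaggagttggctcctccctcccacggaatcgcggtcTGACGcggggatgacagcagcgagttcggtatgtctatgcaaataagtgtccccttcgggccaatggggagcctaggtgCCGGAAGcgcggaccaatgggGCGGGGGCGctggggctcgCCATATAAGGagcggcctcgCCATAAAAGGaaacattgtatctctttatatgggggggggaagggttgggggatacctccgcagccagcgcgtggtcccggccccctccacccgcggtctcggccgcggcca
Nr4a1, chr15:101266596-101266895, plus strand: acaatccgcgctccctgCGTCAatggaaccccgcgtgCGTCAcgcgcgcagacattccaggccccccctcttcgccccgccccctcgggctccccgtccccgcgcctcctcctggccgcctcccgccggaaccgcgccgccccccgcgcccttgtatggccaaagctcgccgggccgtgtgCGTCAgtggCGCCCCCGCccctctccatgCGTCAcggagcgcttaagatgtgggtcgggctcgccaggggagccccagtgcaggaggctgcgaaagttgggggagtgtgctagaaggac
Nr4a3, chr4:48045055-48045354, plus strand: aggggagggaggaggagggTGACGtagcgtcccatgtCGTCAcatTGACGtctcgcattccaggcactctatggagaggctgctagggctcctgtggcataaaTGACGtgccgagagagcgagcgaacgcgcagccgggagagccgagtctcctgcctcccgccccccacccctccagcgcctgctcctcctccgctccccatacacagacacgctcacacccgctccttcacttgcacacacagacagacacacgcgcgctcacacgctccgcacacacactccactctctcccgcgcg

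The Egr2 window held the CArG box CCATATATGG at -72 to -63, counted from the start of the gene with -1 as the base before it, with a CRE core on either side. The Srf window held 2 CArG boxes, CCATATAAGG at -82 to -73 and CCATAAAAGG at -62 to -53, next to an EGR motif at -101 to -93 and an ETS core at -122 to -116. The Nr4a1 window held 4 CRE cores and 1 EGR motif at -60 to -52, and no CArG box. The Nr4a3 window also held 4 CRE cores, as did that of Nr4a2.

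Both strands of all 32851 mouse windows in the RefSeq table were searched in the same way. A CArG box was present in 1.63% of them, and among the 8 genes searched in Egr2, in 4 of its 5 annotated windows, and in Srf. A CRE core was present in 20.8% of all windows and in at least 1 window of 7 of the 8 genes, the exception being Nab2. The EGR motif GCGGGGGCG was present in 2.91% of all windows and in those of Nr4a1, Srf and Nab1, and GCGTGGGCG in 0.612% and in Nab1. The ETS core was in 8.86% and in Srf, the full CRE in 1.79% and the NBRE in 1.51%, and no match to either of these motifs was in a window of the 8 genes. The windows of the 8 genes were GC-rich, at 56.0% to 81.7% against a median of 52.7% for all windows, and several windows of Egr2 overlap, so the shares compare windows of unlike base composition. The matches are letters in a window and do not show binding.

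Among the EGR factors, Egr1, Egr2 and Egr3 stood below every control in all 3 NAPQI libraries, and by far the lowest in NAPQI replicates 1 and 3. Egr1, the most widely expressed member, which acts in growth and stress responses, stood at 742, 734 and 981 CPM in control replicates 1, 2 and 3 and at 84.1, 531 and 73.6 CPM in NAPQI replicates 1, 2 and 3. In relation to the control mean, the NAPQI libraries held 10.3%, 64.8% and 8.98% of it. NAPQI replicate 2 was thus the one nearest to the controls, 6.31-fold above NAPQI replicate 1 and 7.22-fold above NAPQI replicate 3. The log2 fold change was -1.84 ± 0.56 (SE of the fit). With each library left out it ranged from -3.38, without NAPQI replicate 2, to -1.41, without NAPQI replicate 3. Since the genes were picked for low values in the other NAPQI libraries, a larger difference without NAPQI replicate 2 follows from the choice.

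Egr2, known for hindbrain patterning and for myelination by Schwann cells, showed the widest gap between NAPQI libraries of the 9 genes detected in all 6. It stood at 16.9, 17.2 and 38.5 CPM in the controls and at 0.992, 14.9 and 1.11 CPM in the NAPQI libraries. NAPQI replicates 1 and 3 had 16 counts each, against 235 in NAPQI replicate 2 and 289 to 524 in the controls. The fitted log2 fold change was -2.08 ± 0.70. It ranged from -4.51, without NAPQI replicate 2, to -1.57, without NAPQI replicate 1, when each library was left out.

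Egr3, which acts in muscle spindle and lymphocyte development, varied most among the controls, at 2.98, 5.23 and 14.5 CPM. With NAPQI it stood at 0.744, 2.91 and 0.971 CPM, so that NAPQI replicate 2 lay only just under control replicate 1, at 46 counts against 51. The log2 fold change of -2.27 ± 0.59 was -1.41 without control replicate 3, whose level was 4.87-fold that of control replicate 1, and -3.12 without NAPQI replicate 2. Egr4, a factor known for roles in neurons and in male fertility, was near the limit of detection and was not tested. It had 6, 7 and 11 counts in the controls, 11 in NAPQI replicate 2, and 0 in NAPQI replicates 1 and 3, which allows up to 0.186 and 0.208 CPM there (3 counts; counting error only). Its groups overlap, since NAPQI replicate 2, at 0.697 CPM, lay within the control range of 0.350 to 0.809 CPM.

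**Figure D1:**
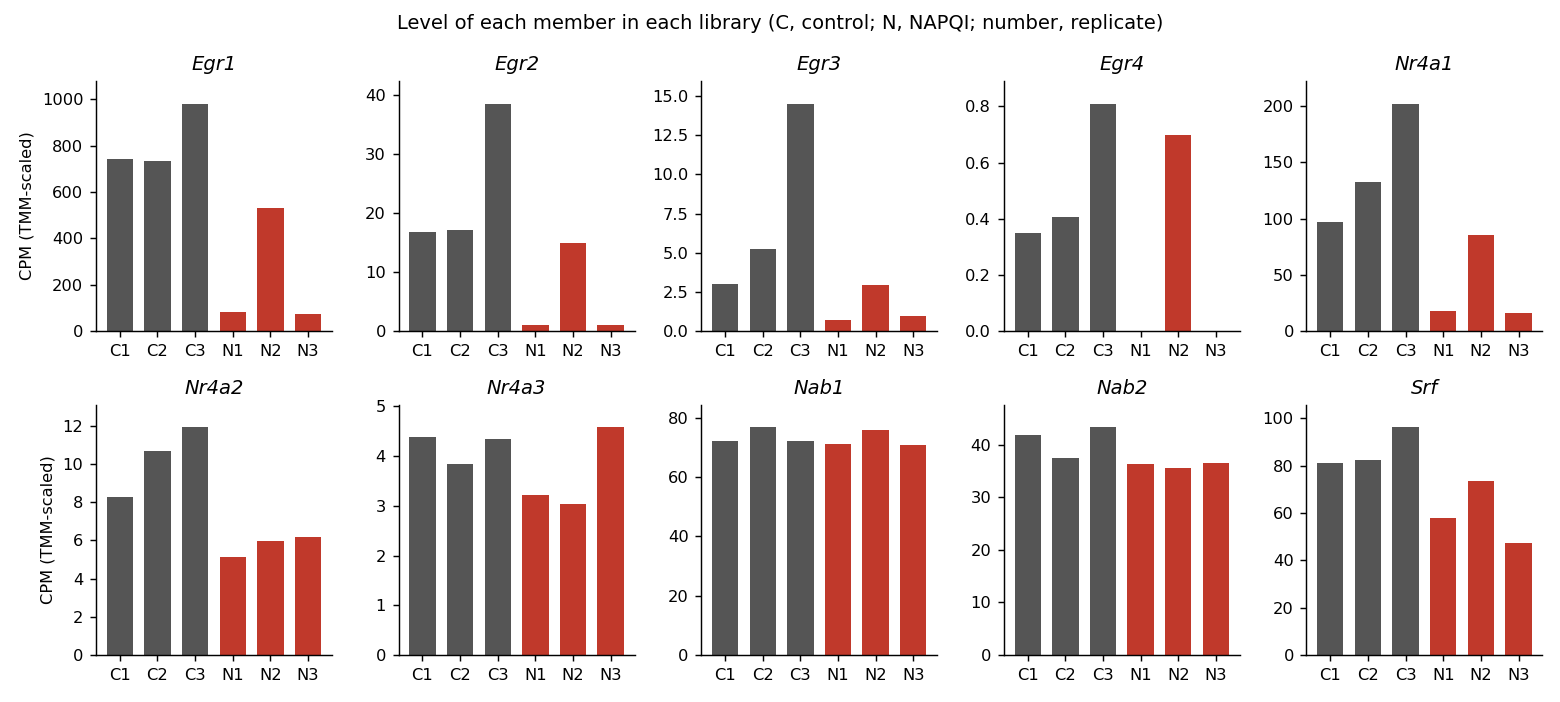
Level of each gene in CPM (vertical axis, from 0, scaled per gene) in each library, with controls in grey and NAPQI libraries in red, 1 bar per library. In Egr1, Egr2, Egr3 and Nr4a1 the bars of NAPQI replicates 1 and 3 are far below that of NAPQI replicate 2, in Nr4a2 all 3 NAPQI bars are alike, and Egr4 has 0 counts in NAPQI replicates 1 and 3.

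The 3 NR4A receptors gave 3 different pictures. Nr4a1 (Nur77), known for roles in T cell selection, apoptosis and steroid-producing cells, went with the EGR factors. It stood at 97.0, 133 and 202 CPM in the controls and at 17.5, 85.2 and 15.9 CPM in the NAPQI libraries, with NAPQI replicate 2 again 4.85-fold above replicate 1 and 5.37-fold above replicate 3. Every NAPQI library lay below every control. Its log2 fold change was -1.86 ± 0.49. It ranged from -3.10, without NAPQI replicate 2, to -1.485, without NAPQI replicate 3, when each library was left out.

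Nr4a2 (Nurr1), needed for midbrain dopamine neurons, was lower by a similar amount in all 3 NAPQI libraries. It stood at 8.29, 10.7 and 11.9 CPM in the controls and at 5.15, 5.95 and 6.17 CPM with NAPQI, which is 50.0%, 57.8% and 59.9% of the control mean. NAPQI replicate 2 lay between the others, and the groups did not overlap. Its log2 fold change was -0.84 ± 0.21, with a range of -0.97 to -0.73 when each library was left out in turn. Nr4a3 (Nor1), the third receptor, stood at 4.38, 3.83 and 4.34 CPM in the controls and at 3.22, 3.04 and 4.58 CPM with NAPQI. Its groups overlapped, and here NAPQI replicate 3 was the highest of all 6 libraries. Its log2 fold change was -0.21 ± 0.28, smaller than its SE.

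Srf, the factor upstream of many of these genes, was lower by less. It stood at 80.9, 82.5 and 96.1 CPM in the controls and at 57.8, 73.6 and 47.4 CPM in the NAPQI libraries, or 66.8%, 85.1% and 54.8% of the control mean. The groups had no overlap, and NAPQI replicate 2 was again the nearest to the controls. The log2 fold change was -0.54 ± 0.14.

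The corepressors differed little. Nab1 stood at 72.3, 76.8 and 72.3 CPM in the controls and at 71.3, 76.0 and 70.7 CPM with NAPQI, with overlapping groups. Its log2 fold change was -0.02 ± 0.09 and took both signs when libraries were left out, from -0.06 without NAPQI replicate 2 to 0.008 without control replicate 2. Nab2, which EGR factors are known to induce, stood at 42.0, 37.5 and 43.3 CPM in the controls and at 36.4, 35.5 and 36.5 CPM with NAPQI. Its NAPQI libraries were tightly grouped just below the lowest control, and NAPQI replicate 2 did not stand above the others. The log2 fold change was -0.18 ± 0.11. Nab2 is on the minus strand of chromosome 10 and its span overlaps Nemp1 by 1668 bases and Stat6 by 40 bases, both on the plus strand. No source used here says if counting was stranded, so reads of these genes may be exchanged. For Nemp1 the log2 fold change was 0.35 ± 0.12 with an adjusted p by edgeR of 0.402, and for Stat6 it was 0.04 ± 0.11 with 0.934.

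**Figure D2:**
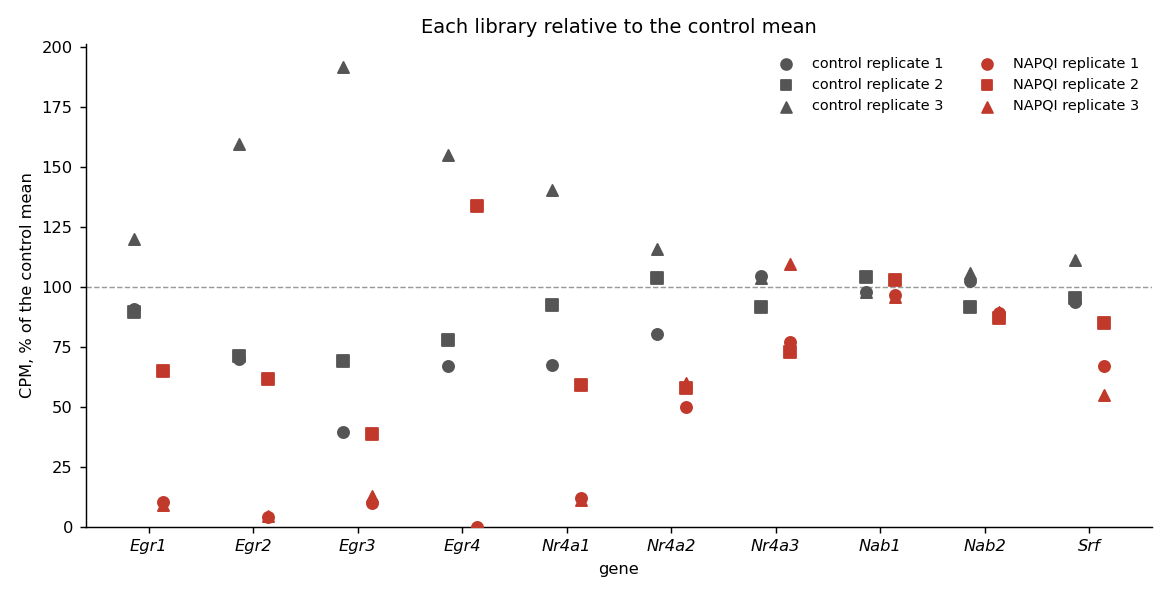
CPM of each library as a percentage of the control mean of the gene (vertical axis, from 0), by gene, with controls in grey, NAPQI in red and a marker shape per replicate number. NAPQI replicates 1 and 3 lie at 4.10% to 12.8% for Egr1, Egr2, Egr3 and Nr4a1, where NAPQI replicate 2 lies at 38.5% to 64.8%, while Nab1 and Nab2 lie at 86.8% to 103% in all 3.

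Of the 10 genes 9 were tested, all but Egr4, and the log2 fold change was below 0 for each of the 9. Their median was -0.84 against -0.005 over all tested genes, of which 51.1% were negative. By edgeR, 0 of the 9 were called, where 0.0814% of all tested genes were. An unadjusted p under 0.05 was given to 6 of the 9, where 9.3% of all tested genes had one. DESeq2 called 0 of the 9, where it called 0.509% of all tested genes. All 3 NAPQI libraries lay below all 3 controls for 7 of the 9, where 6.84% of all tested genes did so. Since the genes were picked on this comparison, nothing is read from these counts. The edgeR count became 3 without NAPQI replicate 2 (Egr1, Egr2 and Nr4a1; background 0.167%) and 2 without a low-count filter (Egr3 and Nr4a1; background 0.258%).

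The authors' deposited table gave fold changes of the same direction and size, from the same libraries, so it is no separate check. In the authors' deposited table Egr1 has a log2 fold change of -1.84 and Nr4a1 of -1.87, from mean normalised counts of 12780 and 2246 in controls. The adjusted p by the authors' DESeq was 0.109 for Egr1, the smallest of the 10 genes, and 0.549 for Nr4a1. Egr4, not tested above, has a log2 fold change of -1.17 there, on means of 8.14 and 3.62 normalised counts. Its unadjusted p by the authors' DESeq was 0.368.

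The libraries of a group differed from each other by unlike amounts from gene to gene. The SD of log2 CPM over the 3 NAPQI libraries was 2.12 for Egr2, 1.59 for Egr1, 1.35 for Nr4a1 and 0.96 for Egr3, where the median over all tested genes was 0.14. The genes were picked for low values in 2 of the 3 NAPQI libraries, which by itself gives a wide spread there, so nothing is read from these SDs or from NAPQI replicate 2 being the highest NAPQI library for 6 of the 9 tested genes. Over the 3 controls, the SD was 1.13 for Egr3, 0.68 for Egr2, 0.53 for Nr4a1 and 0.24 for Egr1, each above the median of 0.18 over all tested genes. Nr4a2, at 0.265, was also above that median, while Nr4a3, at 0.10, and Srf, at 0.14, were below it. The corepressors had SDs of 0.02 to 0.11 in both groups.

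The summed level of each of 8 lists of cell type markers overlapped between the groups. The summed level of 10 macrophage and leukocyte markers was 104 to 136 CPM in controls against 92.4 to 107 CPM in NAPQI libraries. That of 8 endothelial markers was 170 to 239 and 183 to 227 CPM, that of 8 surface epithelium and mesothelium markers 254 to 669 and 324 to 512 CPM, and that of 6 smooth muscle markers 140 to 222 and 172 to 208 CPM. Germ cell markers summed to 1461 to 1664 and 1450 to 1834 CPM, pregranulosa markers to 2279 to 2774 and 2272 to 2529 CPM, red blood cell markers to 30.0 to 203 CPM in controls and at most 69.1 CPM with NAPQI, and testis cell markers to 18.4 to 28.8 and 15.0 to 23.2 CPM. By edgeR 0 of the 56 tested markers were called, by DESeq2 1 (Myh11), and 4 had an unadjusted p under 0.05, where 9.3% of all tested genes had one. In 2 of the tested markers, Wnt4 of the pregranulosa list and Myh11 of the smooth muscle list, all NAPQI libraries lay above all controls. The share of all tested genes that did so was not counted, so nothing is read from these 2. Hba-a2 was at 0 in every library. NAPQI replicate 2 lay between NAPQI replicates 1 and 3 for the endothelial, germ cell, pregranulosa, testis cell and red blood cell sums and below both for the surface epithelium and smooth muscle sums, and above both, at 107 CPM, for the macrophage sum. The part of these markers in the results was not tested. In RNA of whole ovaries, fewer cells of a type and less RNA per cell cannot be told apart.

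Levels of different genes were compared by the authors' FPKM, which are per kilobase of gene length. In the controls Egr1 was highest, with a median of 166 FPKM and a range of 163 to 214 FPKM, clear of Nr4a1 at 37.8 (27.6 to 56.4) FPKM. Nr4a1 and Srf, at 28.4 (28.0 to 32.5) FPKM, overlapped. Below them, each clear of the next, came Nab1 at 17.6 (17.3 to 18.7), Nab2 at 14.3 (12.7 to 14.4) and Egr2 at 5.05 (4.97 to 11.1) FPKM. Nr4a2 at 2.63 (2.04 to 2.88) FPKM overlapped with Egr3 at 1.18 (0.676 to 3.22) FPKM, and Egr3 with Nr4a3 at 0.710 (0.639 to 0.731) FPKM. Egr4 was lowest, clear of Nr4a3, at 0.189 (0.163 to 0.369) FPKM.

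The order was different in NAPQI libraries. By the median with NAPQI, Srf came first at 20.1 FPKM and Egr1 second at 18.9 FPKM, followed by Nab1 at 17.5 and Nab2 at 12.4 FPKM, while Nr4a1 stood at 5.02 FPKM. In NAPQI replicate 2 alone Egr1 was still the highest, at 119 FPKM. The ratio of Egr1 to the sum of Nab1 and Nab2, in FPKM, was 5.19, 5.20 and 6.76 in the controls. With NAPQI it was 0.630 in replicate 1, 3.87 in replicate 2 and 0.553 in replicate 3, so transcripts of the corepressors outnumbered those of Egr1 per length in 2 of the 3 NAPQI libraries. Egr1 made up 93.6% to 96.6% of the summed EGR level in controls and 95.7% to 97.6% with NAPQI, so its share of the family overlapped between the groups. Nr4a1 made up 90.9% to 94.0% of the summed NR4A level in controls and 92.5% in NAPQI replicate 2, but 73.5% and 66.4% in NAPQI replicates 1 and 3. The ratio of Egr1 to Nr4a1 ranged from 3.80 to 5.99 in controls and from 3.63 to 4.88 with NAPQI, although both genes spanned a wide range of levels. The genes were picked for low values in 2 of the 3 NAPQI libraries. Nothing is therefore read from the changed order or from these ratios and shares.

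**Figure D3:**
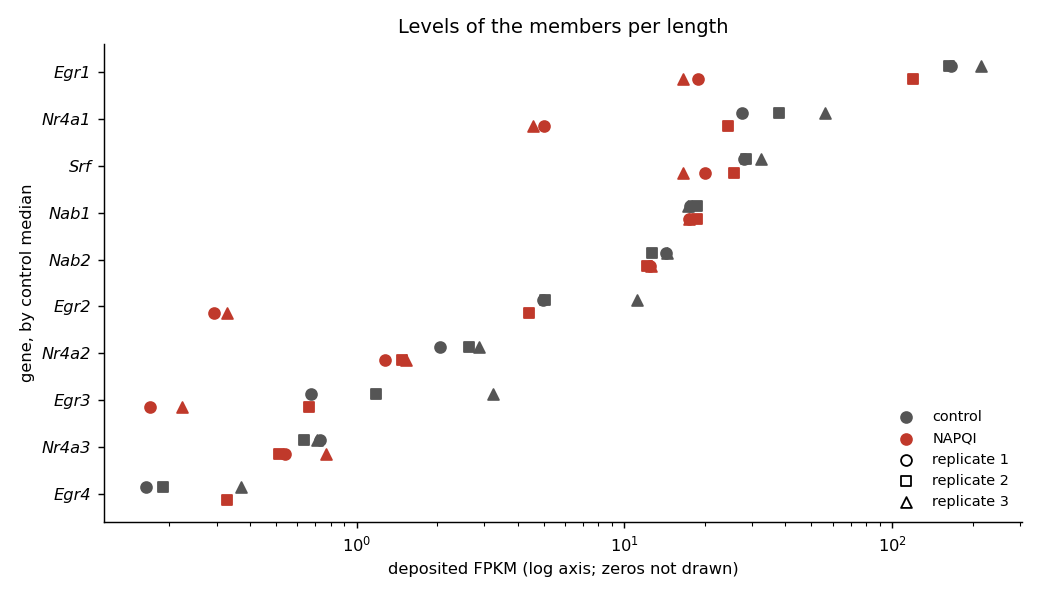
Deposited FPKM of each gene in each library (horizontal log axis), ordered by the control median, with controls in grey, NAPQI in red and a marker shape per replicate number; the Egr4 values of 0 in NAPQI replicates 1 and 3 are not drawn. Egr1 spans 163 to 214 FPKM in controls and stands at 16.6 and 18.9 FPKM in 2 NAPQI libraries, while Nab1 and Nab2 stay within 12.2 to 18.7 FPKM.

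The genes most like these factors across the 6 libraries were found from the mean profile of 6 of the 7 EGR and NR4A factors, leaving out Egr4, which averaged under 1 CPM. Likeness was the root mean square difference between log2 CPM profiles, each centred on the gene's own mean, over 14079 other genes. Zfp36, which encodes an RNA-binding protein that speeds the decay of AU-rich transcripts, was closest at 0.16, where the median gene was at 1.11. Next came Ier2 at 0.21, Socs3, an inhibitor of cytokine signalling, at 0.25, Atf3, a stress-induced transcription factor, at 0.26, and Dusp1, a phosphatase of MAP kinases, at 0.27. Maff, a small MAF protein, was at 0.31, Btg2, an antiproliferative gene, at 0.37 and Klf4, a Kruppel-like factor, at 0.39.

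Zfp36 stood at 70.9, 106 and 139 CPM in the controls and at 16.8, 64.0 and 16.4 CPM with NAPQI, a pattern close to that of Nr4a1. For all 8 genes NAPQI replicates 1 and 3 were the 2 lowest of the 6 libraries. The mean profile by which the genes were chosen is lowest there too, so nothing is read from this. The likeness is in part the difference between groups itself and rests on 6 libraries. The 6 factors that make up the mean profile lay at 0.33 (Nr4a1), 0.42 (Egr3), 0.50 (Egr1), 0.75 (Nr4a2), 0.91 (Egr2) and 1.08 (Nr4a3) from it. Of the genes outside it, Egr4 lay at 0.40, Srf at 0.78, Nab2 at 1.03 and Nab1 at 1.08.

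**Figure D4:**
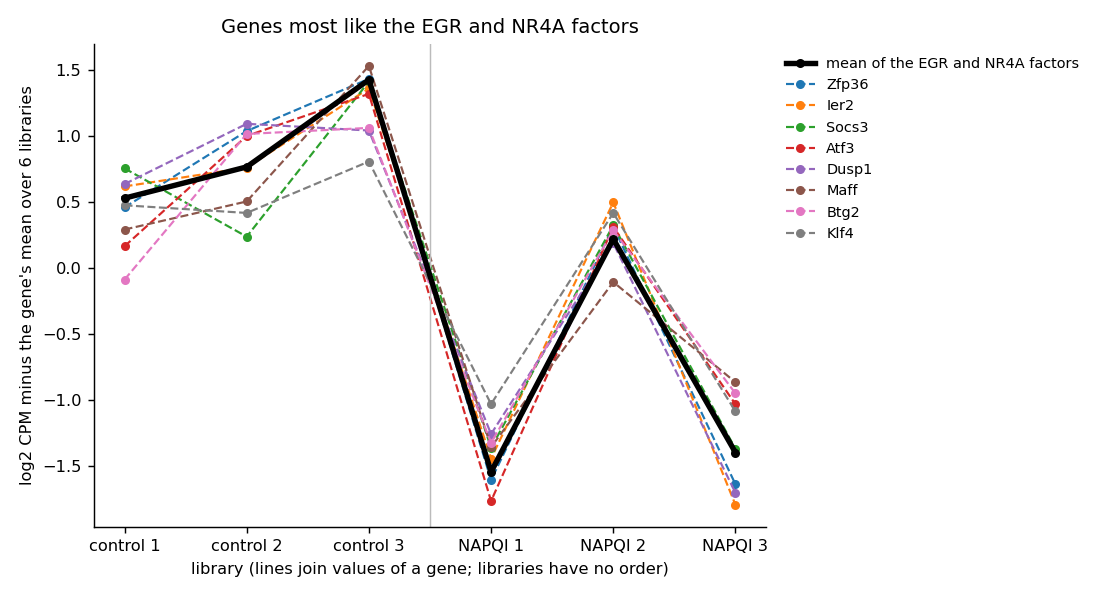
Log2 CPM minus the gene's mean over the 6 libraries (vertical axis), by library, for the mean of 6 EGR and NR4A factors (black) and the 8 other genes with the most similar profile (dashed). The mean profile stands at 0.53 to 1.43 in the controls, at -1.55 and -1.40 in NAPQI replicates 1 and 3 and at 0.22 in NAPQI replicate 2.

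No gene listed for carrying signals to these factors was called. Of 21 listed genes of the ERK cascade 20 were in the table and tested; 0 were called by edgeR or DESeq2 and 3 had an unadjusted p under 0.05. Their median log2 fold change was 0.05, with a range of -0.18 to 0.33. Map2k1, the kinase MEK1 that phosphorylates ERK, stood at 68.0 ± 6.76 CPM in controls against 85.3 ± 5.77 CPM in NAPQI libraries (mean ± SD, n = 3; edgeR adjusted p = 0.374). Sos1, the exchange factor of RAS, stood at 104 ± 7.37 and 122.7 ± 2.86 CPM (edgeR adjusted p = 0.44).

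Of the 6 cofactors of Srf, 0 were called by edgeR or DESeq2 and 1 had an unadjusted p under 0.05, with a median log2 fold change of 0.03. Myocd, a muscle cofactor at low level here, stood at 2.20 ± 1.07 and 3.93 ± 0.115 CPM (edgeR adjusted p = 0.517). Elk4, a ternary complex factor, stood at 56.6 ± 2.50 and 49.6 ± 4.99 CPM (edgeR adjusted p = 0.588). Among 15 CREB and MEF2 factors with their cofactors and kinases, 0 were called by either tool and 0 had an unadjusted p under 0.05, with a median of 0.09. Camk4, a calcium-dependent kinase that phosphorylates CREB, differed by 0.63 ± 0.37 on the log2 scale (edgeR adjusted p = 0.617), and Crtc2, a coactivator of CREB, by -0.15 ± 0.09 (edgeR adjusted p = 0.619). Of the retinoid X receptors, the partners of Nr4a1 and Nr4a2, 2 of 3 were tested, 0 were called by either tool and 0 had an unadjusted p under 0.05. Rxra differed by 0.12 ± 0.09 on the log2 scale (edgeR adjusted p = 0.702) and Rxrb by -0.02 ± 0.09 (edgeR adjusted p = 0.961), a value that changed sign under library-size scaling (0.002).

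Most other immediate early genes had values below those of the controls, as the EGR factors did, in a list that was known from earlier results of these data to be lower. Of 30 listed genes 28 were tested, 26 of them with a log2 fold change below 0, and their median was -1.04. By edgeR 1 was called, Ccn1, where 0.0814% of all tested genes were, and DESeq2 called 6, where it called 0.509% of all. An unadjusted p under 0.05 was given to 22, where 9.3% of all tested genes had one. Since the list was known to be lower, nothing is read from these counts. Ccn1, which encodes a matrix protein and is a target of both SRF and YAP, fell from 277 ± 118 to 88.0 ± 18.6 CPM (edgeR adjusted p = 0.0453, and 0.000478 to 0.397 over 11 alternatives). The adjusted p by edgeR was 0.397 without control replicate 3, and dropping NAPQI replicate 1 or 3 gave 0.284 or 0.218. Ccn1 stood at 87.4, 107 and 69.7 CPM in the NAPQI libraries, so NAPQI replicate 2 was closer to the others than in Egr1. Dusp1 differed by -1.63 ± 0.35 on the log2 scale (edgeR adjusted p = 0.179, and 3.33e-05 to 0.759 over 11 alternatives).

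Structural targets of Srf and reported targets of the EGR and NR4A factors showed smaller differences. Of 20 genes of the actin cytoskeleton that SRF is known to regulate, 17 lay below 0 on the log2 fold change scale, and the median was -0.19. By edgeR 0 were called, by DESeq2 1, and 5 had an unadjusted p under 0.05. Vcl, among the 5, was higher with NAPQI, by 0.427 ± 0.152 on the log2 scale (edgeR adjusted p = 0.422), with overlapping groups. The others of the 5 were lower. Actb, which encodes cytoplasmic beta-actin, stood at 1596 ± 155 CPM in controls against 1249 ± 54.1 CPM in NAPQI libraries (edgeR adjusted p = 0.316, and 0.0471 to 1 over 11 alternatives). Zyx, a protein of focal adhesions, stood at 154 ± 15.5 and 124 ± 2.35 CPM (edgeR adjusted p = 0.365). For Actb and Zyx all NAPQI libraries lay below all controls, as they did for 6.84% of all tested genes. NAPQI replicate 2 was at 1300 CPM for Actb and 125 CPM for Zyx, beside 1193 to 1255 and 122 to 127 CPM in the others.

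Among 10 reported EGR targets, 0 were called by edgeR or DESeq2 and 1 had an unadjusted p under 0.05; 7 were negative, with a median of -0.15. Tgfb1, the cytokine TGF-beta 1, stood at 23.5 ± 1.63 and 18.2 ± 2.22 CPM (edgeR adjusted p = 0.448), and F3, tissue factor, at 17.8 ± 7.97 and 11.9 ± 2.73 CPM (edgeR adjusted p = 0.569). Of 10 reported NR4A targets 8 were tested, 0 were called by either tool and 3 had an unadjusted p under 0.05. The log2 fold change was negative for 6 and positive for 2, with a median of -0.14. Pomc, among the 3, was higher with NAPQI, at 3.19 ± 0.739 and 5.05 ± 0.522 CPM (edgeR adjusted p = 0.503), while the others of the 3 were lower. Eno3, a muscle enolase, stood at 47.0 ± 7.53 and 35.3 ± 4.34 CPM (edgeR adjusted p = 0.407) and Spp1, osteopontin, at 28.8 ± 10.7 and 19.5 ± 2.81 CPM (edgeR adjusted p = 0.458). Star, Hsd3b1 and Cyp17a1, genes of steroid synthesis chosen here after their values were seen, had log2 fold changes of -0.21, -0.22 and -0.08.

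**Figure D5:**
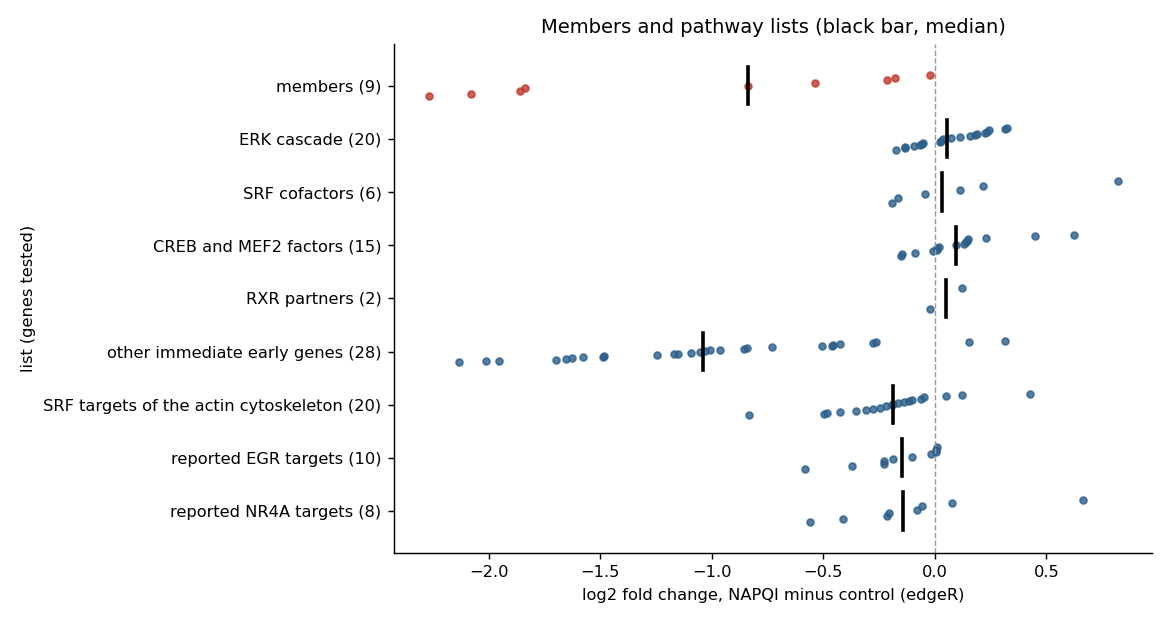
Log2 fold change of each tested gene, NAPQI minus control (horizontal axis), for the 9 tested EGR, NR4A, NAB and Srf genes (red) and for each pathway list (blue), with the median as a black bar and the number tested in parentheses. The red genes have a median of -0.84 and the other immediate early genes of -1.04, while the medians of the 7 remaining lists lie between -0.19 and 0.09, and that of the retinoid X receptors rests on 2 genes.

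In GRCm39 coordinates as deposited, the genes are spread over 9 chromosomes. Egr1 lies on chromosome 18 (34992876 to 34998037), Egr2 on chromosome 10 (67371305 to 67378018), Egr3 on chromosome 14 (70314652 to 70320063) and Nr4a1 on chromosome 15 (101152150 to 101172676), all on the plus strand, as is Nr4a3 on chromosome 4 (48045153 to 48086447). Egr4 lies on chromosome 6 (85488103 to 85490571), Nr4a2 on chromosome 2 (56996842 to 57014015), Nab1 on chromosome 1 (52496453 to 52539838), Nab2 on chromosome 10 (127496787 to 127504437) and Srf on chromosome 17 (46859255 to 46867101), on the minus strand. Of the 10, only Nab2 overlapped another gene of the table.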

How the data were processed

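RNA sequencing libraries were grouped by their titles, 3 control and 3 NAPQI. The authors deposited raw read counts per gene, whole numbers by the file's values, and FPKM values, which equal the deposited count per kilobase and per 1e+06 counted reads to within 0.00149%. A second table by the authors holds mean normalised counts (signal), their ratio (fold), its log2 value and p-values for NAPQI against control. The submitters' processing notes name FastQC 0.11.8, HISAT2 2.0.5, HTSeq 0.9.1 and GRCm39; settings and strandedness are not given in the sources used here.

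The deposited counts were fitted by edgeR 4.0.16 in R 4.3.3 (filterByExpr, minimum count 10; TMM; two-sided quasi-likelihood F-test; Benjamini-Hochberg over all tested genes; threshold 0.05). SEs are the log2 fold change divided by the root of F. Log2 CPM used a prior count of 2. With 3 libraries a group, an exact permutation test over libraries could not go below a two-sided p of 0.1. Depth, 13879347 to 17258609 counts per library, limits precision most in Egr4 and Egr3.

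The genes described and all lists were chosen with earlier results of these data known. Named genes were the 10 described, the 2 with the smallest p in each list, the 8 of most similar profile (mean of at least 1 CPM) and genes overlapping the 10. Vcl and Pomc were named as well, after their values were seen, because they were higher in lists that were mostly lower. Alternatives were other scalings, no low-count filter, DESeq2 1.42.0, the replicate number as a block and each library left out. Rps6ka4 was not in the count table. Proteins were not analysed here. Promoters are from RefSeq (GRCm38.p6), searched with Python 3.11.15; figures used matplotlib 3.10.9.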

Additional observations from a re-analysis of the deposited data

How the results depend on the processing

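The log2 fold changes of the 9 tested genes kept a negative sign under 11 alternatives, except that of Nab1, which was 0 to 3 decimals with library-size scaling and 0.008 without control replicate 2. Over other scalings, tests and the filter their median stayed at -0.84 to -0.81, and it was -0.97 to -0.73 with each library left out. Counts of calls depended on the setting. Without a low-count filter 48 genes were called, 2 of the 9 and 7 of the pathway lists. DESeq2 called 75 genes, 0 of the 9 and 7 of the lists. With each library left out the number of genes called ranged from 1 to 58, that of the 9 from 0 to 3 and that of the lists from 0 to 12, against 12, 0 and 1 with all libraries. The cause was not tested. The highest counts of the 9 and of the lists came without NAPQI replicate 2. The 9 were picked for low values in 2 of the 3 NAPQI libraries, and the lists were chosen with earlier results known. Nothing is therefore read from these highest counts. With the replicate number as a block 1 gene was called, 0 of the 9 and 0 of the lists. Deviations from the group means correlated above 0.1 in 0 of 3 pairs of equal number. The highest correlation, 0.212, was between control replicate 2 and NAPQI replicate 3. The numbers thus gave no sign of pairing, but with 3 libraries a group the check cannot exclude it. Rxrb changed sign under library-size scaling (0.002) and ranged from -0.056 to 0.009 with a library left out, the top without control replicate 3. Stat6 ranged from -0.045, without control replicate 3, to 0.099, and was -0.043 when NAPQI replicate 1 was dropped. Depth limits Egr4, with at most 11 counts in a library, and Egr3, with 12 and 14 counts in NAPQI replicates 1 and 3.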
